A study of Mus musculus with 16 samples.

Results

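The genes described here are 9 that are known as targets of the glucocorticoid receptor, as the receptor itself or as metallothioneins. They are the metallothioneins Mt1, Mt2 and Mt3, the receptor gene Nr3c1, and the responsive genes Sgk1, Tsc22d3, Map3k6, Errfi1 and Klf9. They were taken by gene symbol, each as 1 row, from 17097 genes measured in every library. All 9 passed the filter on low values in each comparison. The samples were striata of wild-type male C57BL/6J mice at postnatal day 63, taken 2 h after an injection. The 4 groups were CNO IP and CNO input, from mice given clozapine N-oxide (CNO) at 1 mg/kg, and vehicle IP and vehicle input, from mice given vehicle. IP stands for RNA bound to astrocyte ribosomes that were pulled down by a hemagglutinin (HA) tag, and input for the cleared lysate of the whole tissue. Each group held 4 libraries, with replicate numbers 2 to 5.

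CNO is a synthetic ligand used to switch on designer receptors, and the series title names Gi signalling in astrocytes. The labels name neither the receptor nor what carried the tag, and no group is labelled as given CNO without that receptor, so effects of CNO itself and of receptor activation cannot be told apart. The study's text speaks of 4 mice, whereas the titles carry 8 mouse codes, and each code was taken as 1 mouse with 1 IP and 1 input library. If several codes came from 1 animal, a p-value here covers no more than the spread between samples.

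Glucocorticoids such as corticosterone enter cells and bind a receptor held in the cytoplasm by chaperones. The bound receptor moves to the nucleus, where it attaches to short palindromic DNA elements and raises or lowers transcription of nearby genes. Metallothioneins are small cysteine-rich proteins that bind zinc and copper. Mt1 and Mt2 are induced both by metals, through the zinc-sensing factor MTF-1, and by glucocorticoids, and in the brain they are made mainly by astrocytes. Mt3 is the brain form and is not known as a metal-induced gene.

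The astrocyte label of the IP fitted its markers, since all 12 of 12 were higher in IP than in input in both injection groups. Their summed level ran from 29604 to 33180 CPM, reads scaled to library size, in CNO IP and from 28464 to 34392 CPM in vehicle IP, against 2892 to 3808 CPM in CNO input and 2941 to 3118 CPM in vehicle input. With CNO, 2 of the 12 fell in IP, Gja1 and S100b, beside 7.07% of all genes called lower. Of the 10 oligodendrocyte markers, 9 were higher in IP than in input in CNO mice and 7 in vehicle mice, with 0 lower in either. Over all genes, 40.0% were called higher in IP in CNO mice and 37.6% in vehicle mice. A higher level in IP was thus not particular to astrocyte genes. The oligodendrocyte markers summed to 8201 to 10983 CPM in CNO IP and 6151 to 14782 CPM in vehicle IP. The 10 medium spiny neuron markers, all lower in IP than in input, summed to 2610 to 3987 CPM in CNO IP and 2968 to 3417 CPM in vehicle IP. The 8 mural cell markers summed to 101 to 118 CPM in CNO IP and 146 to 171 CPM in vehicle IP, a difference led by Pdgfrb, and the 10 endothelial markers to 140 to 171 CPM in CNO input and 188 to 198 CPM in vehicle input. The part of these marker shifts in the results below was not tested, and no marker was at 0 reads in any library. Libraries held 52.1 to 61.5 M reads in IP and 32.8 to 40.3 M in input.

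With CNO, Mt1, Mt2, Map3k6 and Errfi1 rose in IP and Nr3c1 fell. In input, Mt1, Mt2 and Map3k6 rose. These counts, 4 higher and 1 lower of 9, stand beside 10.2% of all 15598 genes tested that were called higher in IP and 7.07% called lower by limma at an adjusted p under 0.05. In input, the 3 higher and 0 lower of 9 by limma stand beside 0.815% called higher and 0.183% called lower among all genes. At an unadjusted p under 0.05, 1 of the 9 was lower in input, where no share over all genes was taken, and limma-voom called 0 lower. The median log2 change of the 9 was 0.63 in IP and 0.21 in input, against medians over all genes of -0.01 and -0.02. The 9 were chosen with earlier results of these data known, so the counts describe them and test nothing about the set. In bulk RNA, fewer cells of a type and less RNA per cell cannot be told apart.

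**Figure D1:**
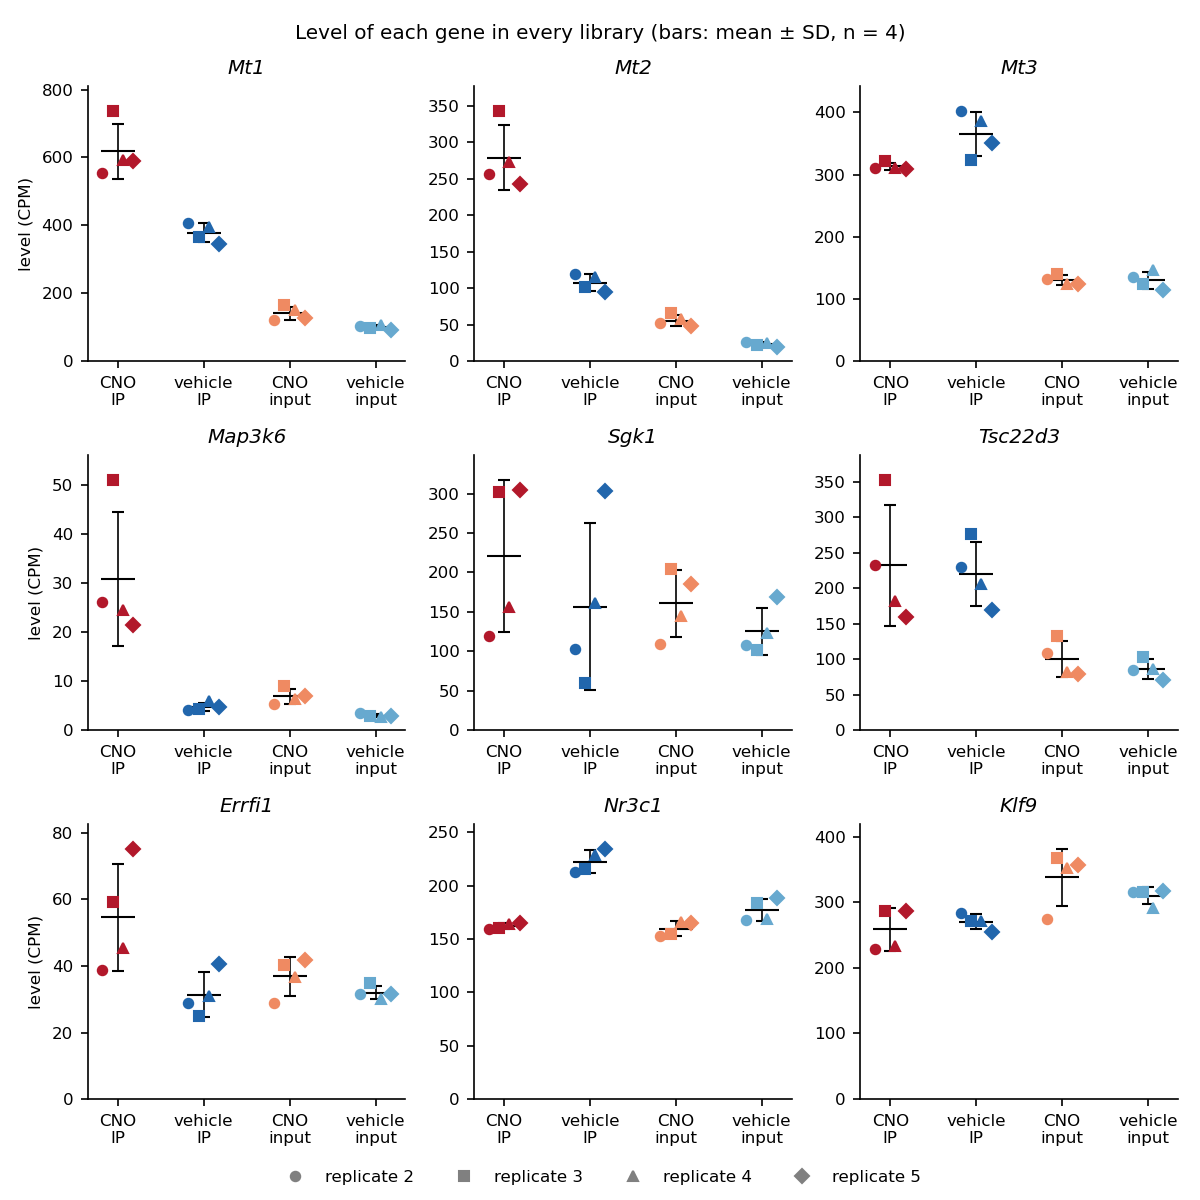
Level in CPM of each of the 9 genes in every library, by group, with points for libraries (the shape gives the replicate number), a line for the mean and bars for the SD (n = 4). Mt2 and Map3k6 show separate CNO and vehicle points in IP and in input, whereas Sgk1 varies most within groups, between 59.6 and 303 CPM in vehicle IP.

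Metallothioneins come first. Mt1, Mt2 and Mt3 lie side by side on mouse chromosome 8 and all are transcribed from the plus strand, at 94179082 to 94180327, 94172664 to 94173568 and 94152607 to 94154146 of GRCm38. Mt2 overlaps an antisense gene model, Gm45774, and whether counting used strand is not given in the sources used here. The longest run of identical bases shared by the transcripts is 20 for Mt1 and Mt2, 27 for Mt1 and Mt3 and 20 for Mt2 and Mt3. Their promoter windows, 250 bases before to 50 after the start (RefSeq, GRCm38.p6), are shown because these 3 neighbours had different log2 changes with CNO. Capitals mark the metal response element to which MTF-1 binds, searched as TGCGCNC or TGCACNC on either strand, where N is any base. The windows are chr8:94178839-94179138, chr8:94172368-94172667 and chr8:94152357-94152656, plus strand.
Mt1: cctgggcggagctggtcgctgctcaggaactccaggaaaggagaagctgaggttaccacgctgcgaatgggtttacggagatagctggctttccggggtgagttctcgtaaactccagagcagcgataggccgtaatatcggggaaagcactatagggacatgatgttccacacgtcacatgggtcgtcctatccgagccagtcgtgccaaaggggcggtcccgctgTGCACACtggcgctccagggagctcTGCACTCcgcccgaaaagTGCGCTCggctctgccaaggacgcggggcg
Mt2: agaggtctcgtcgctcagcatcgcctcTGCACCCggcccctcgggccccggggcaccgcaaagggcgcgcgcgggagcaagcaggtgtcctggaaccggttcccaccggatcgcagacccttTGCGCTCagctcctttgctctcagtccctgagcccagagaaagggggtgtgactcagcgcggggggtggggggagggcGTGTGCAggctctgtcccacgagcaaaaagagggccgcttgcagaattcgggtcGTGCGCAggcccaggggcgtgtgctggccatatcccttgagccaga
Mt3: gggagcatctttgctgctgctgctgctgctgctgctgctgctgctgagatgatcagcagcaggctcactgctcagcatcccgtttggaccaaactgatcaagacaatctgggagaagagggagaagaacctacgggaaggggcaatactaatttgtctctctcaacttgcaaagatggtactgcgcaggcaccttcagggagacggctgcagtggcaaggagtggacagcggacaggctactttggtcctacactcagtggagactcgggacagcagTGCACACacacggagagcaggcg

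The Mt2 window held 4 such matches, the Mt1 window 3 and the Mt3 window 1. Some began after the start, 2 and 20 bases past it in Mt1, 4 in Mt2 and 27 in Mt3. For Mt1 and Mt2 the start used for the window is not the first base of the gene coordinates above. The counts therefore depend on where each window lies. Of all 32851 promoter windows in the table, 25.7% held at least 1 match, 1.97% at least 3 and 0.517% at least 4. The Mt1 window also held the palindrome of a glucocorticoid response element, searched as GNACANNNTGTNC on both strands, in the form GGACATGATGTTC beginning 94 bases upstream of the start. That palindrome was found in 156 of all windows, or 0.475%, and the Mt2 and Mt3 windows held 0. The Mt2 window held an AP-1 site, TGACTCA, inside an antioxidant response element match, TGACTCAGC, so these overlap. The search letters were TGANTCA and TGACNNNGC, present in 7.81% and 12.4% of all windows. A match describes letters only and says nothing about binding in these mice.

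Mt2 was higher in every CNO library than in every vehicle library, in IP and in input alike. It measured 256, 343, 272 and 243 CPM in CNO IP, in the order of replicates 2 to 5, against 119, 101, 115 and 94.0 CPM in vehicle IP. The values were 52.3, 65.4, 57.0 and 47.4 CPM in CNO input and 26.4, 21.5, 24.2 and 19.3 CPM in vehicle input. All groups stood apart, with replicate 3 the highest library within both CNO groups. The difference was 2.59-fold in IP (log2 1.37, SE 0.12, limma adjusted p = 5.92e-05) and 2.43-fold in input (log2 1.28, SE 0.12, adjusted p = 0.000528). The CNO effects in IP and input differed by 0.09 on the log2 scale, with a 95% interval of -0.29 to 0.47 (adjusted p = 0.938).

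Mt1, the more abundant of the pair, rose as well but by less. It measured 555, 737, 591 and 590 CPM in CNO IP against 406, 367, 396 and 344 CPM in vehicle IP, and these groups did not overlap. The change in IP was 1.63-fold (log2 0.70, SE 0.09, limma adjusted p = 0.000904). In input it measured 122, 164, 149 and 128 CPM with CNO and 103, 97.9, 106 and 91.9 CPM with vehicle, again with no overlap. That 1.40-fold change (log2 0.49, SE 0.09) had a limma adjusted p of 0.0417, and the call was lost when any of 7 of the 8 libraries was left out, with adjusted p up to 0.135. The CNO effect was 0.22 larger in IP than in input on the log2 scale (interval -0.08 to 0.51, adjusted p = 0.564), which did not pass the test.

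The balance of the pair shifted with CNO. Per kilobase of transcript, the ratio of Mt2 to Mt1 was 0.483 ± 0.0271 in CNO IP and 0.304 ± 0.0109 in vehicle IP (SD, n = 4 each). It was 0.425 ± 0.0279 in CNO input and 0.246 ± 0.0214 in vehicle input (SD, n = 4 each). With CNO, all 4 libraries of each RNA type had a higher ratio than any vehicle library, by 1.59-fold in IP and 1.73-fold in input. An exact two-sided permutation test gave p = 0.0286 for each (n = 4 against 4), the smallest it allows, and 0.0286 after adjustment over the 2 comparisons. This ratio was chosen after its values were seen. Its mean was higher in IP than in input with either injection, which was not tested, and single CNO IP and CNO input libraries overlapped.

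Mt3, which binds the same metals, did not pass the test in either RNA type. It measured 311, 322, 311 and 309 CPM in CNO IP and 402, 323, 386 and 350 CPM in vehicle IP, so the CNO libraries lay just below the vehicle libraries and close together. The log2 difference of -0.22 (SE 0.07) missed the threshold with a limma adjusted p of 0.0616. It passed when library totals were used without normalization (-0.26, adjusted p = 0.0211), with upper quartile scaling (-0.27, adjusted p = 0.0241) and without vehicle IP replicate 3 (adjusted p = 0.0122). In input the values were 133, 141, 125 and 125 CPM with CNO and 134, 125, 147 and 115 CPM with vehicle, which overlapped (log2 0.01, interval -0.17 to 0.18).

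The responsive genes differed widely from each other. The promoter windows of Map3k6 and Sgk1 (RefSeq, GRCm38.p6, plus strand) are shown because, like that of Mt1, they held the glucocorticoid palindrome. No other of the 8 genes looked at held it in a window, and Nr3c1 was left out of this search. Capitals mark the palindrome, and it began 181 bases before the start of Map3k6 and 188 before this start of Sgk1. The windows are chr4:133240568-133240867 for Map3k6 and chr10:21993640-21993939 for Sgk1, which has several start sites in the table.
Map3k6: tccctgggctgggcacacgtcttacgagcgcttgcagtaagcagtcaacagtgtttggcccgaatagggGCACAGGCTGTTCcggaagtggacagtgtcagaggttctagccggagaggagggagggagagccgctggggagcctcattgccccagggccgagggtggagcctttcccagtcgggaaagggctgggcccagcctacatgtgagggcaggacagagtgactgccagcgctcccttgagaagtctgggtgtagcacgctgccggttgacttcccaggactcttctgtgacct
Sgk1: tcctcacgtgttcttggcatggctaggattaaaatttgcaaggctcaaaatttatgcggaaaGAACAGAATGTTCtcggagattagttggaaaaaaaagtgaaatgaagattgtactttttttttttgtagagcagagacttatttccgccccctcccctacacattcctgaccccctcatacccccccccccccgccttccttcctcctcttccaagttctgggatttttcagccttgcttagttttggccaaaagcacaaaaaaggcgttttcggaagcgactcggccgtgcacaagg

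The Sgk1 match, GAACAGAATGTTC, and the Map3k6 match, GCACAGGCTGTTC, are spelled as on the plus strand. The 16 windows of the 8 genes held few other matches. An Errfi1 window held the cAMP response element TGACGTCA, 51 bases upstream of its start, an element found in 1.79% of all windows. The Klf9 window held an AP-1 site, and a further Sgk1 window held 1 metal response element match.

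Map3k6, a kinase of the stress-activated MAP kinase cascades, showed the widest change. It lies on chromosome 4 at 133240818 to 133252929 of GRCm38, plus strand. It measured 26.2, 51.1, 24.5 and 21.4 CPM in CNO IP and 4.14, 4.35, 5.98 and 4.70 CPM in vehicle IP. Every CNO value was above every vehicle value, and replicate 3 was the highest CNO library, as for Mt1 and Mt2. The rise in IP was 6.10-fold (log2 2.61, SE 0.26, limma adjusted p = 0.000192). In input it measured 5.27, 8.96, 6.40 and 6.93 CPM with CNO and 3.47, 2.78, 2.70 and 2.77 CPM with vehicle, from 115 to 324 reads a library. The rise there was 2.32-fold (log2 1.21, SE 0.17, adjusted p = 0.00642). The CNO effect was larger in IP than in input by 1.39 on the log2 scale (interval 0.71 to 2.08, limma adjusted p = 0.0176), a call that limma-voom on recovered reads did not make (adjusted p = 0.197).

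Errfi1 encodes a feedback inhibitor of the epidermal growth factor receptor. It lies on chromosome 4 at 150853919 to 150868892, plus strand, and overlaps the antisense gene 1700045H11Rik. It measured 38.8, 59.3, 45.4 and 75.2 CPM in CNO IP and 28.9, 25.0, 30.9 and 40.7 CPM in vehicle IP. The groups overlapped at a single pair, the lowest CNO library and vehicle replicate 5. The 1.71-fold rise (log2 0.78, SE 0.22) had a limma adjusted p of 0.0427, and leaving out any of 6 of the 8 libraries lifted it past the threshold, to at most 0.110. In input, 28.9, 40.4, 36.6 and 41.8 CPM with CNO overlapped 31.5, 34.8, 30.0 and 31.5 CPM with vehicle (log2 0.20, interval -0.05 to 0.44, adjusted p = 0.612).

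**Figure D2:**
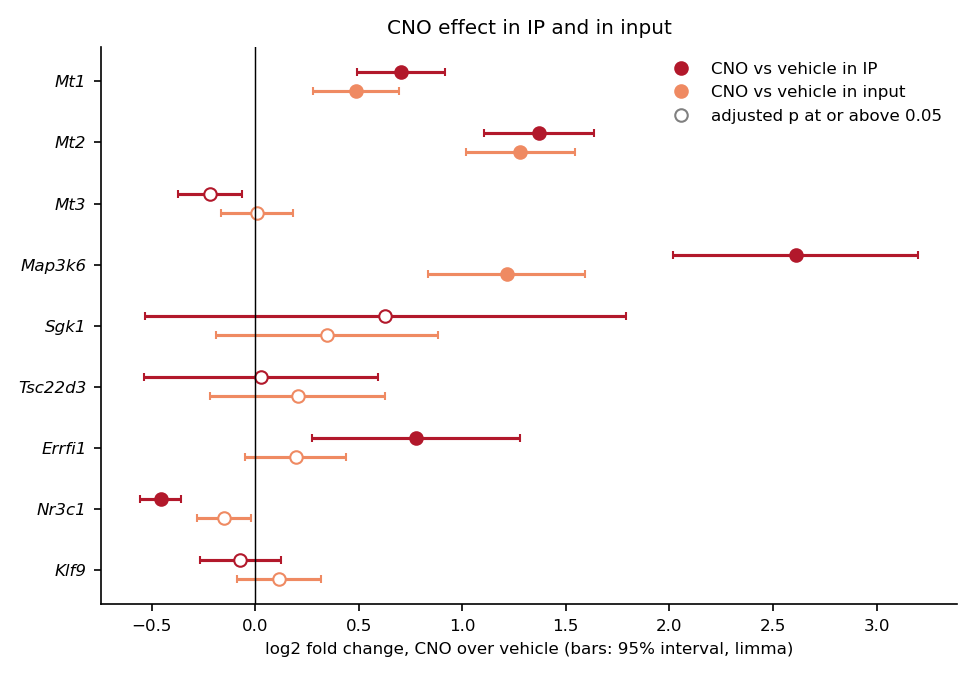
Log2 fold change of CNO over vehicle for each of the 9 genes in IP and in input (points) with the 95% interval from limma (bars); open points have an adjusted p at or above 0.05. Map3k6 stands at 2.61 in IP and 1.21 in input, Mt2 at 1.37 and 1.28, and Nr3c1 at -0.46 and -0.15, while the Sgk1 interval in IP runs from -0.53 to 1.79.

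Sgk1, a kinase that regulates ion channels and transporters and is a standard glucocorticoid-induced gene, varied widely within each group. Its locus is chromosome 10 at 21882184 to 21999903, plus strand. It measured 120, 302, 156 and 305 CPM in CNO IP and 103, 59.6, 161 and 303 CPM in vehicle IP. The range was 2.54-fold within CNO IP and 5.09-fold within vehicle IP, and the lowest library was vehicle replicate 3. The log2 difference was 0.63 (SE 0.51, interval -0.53 to 1.79, limma adjusted p = 0.487). CNO libraries set against vehicle libraries of the same number gave 5.06-fold for number 3 and 0.967 to 1.16-fold for numbers 2, 4 and 5, although the numbers do not mark shared mice. In input it measured 110, 205, 144 and 185 CPM with CNO and 108, 102, 123 and 168 CPM with vehicle (log2 0.35, interval -0.19 to 0.88, adjusted p = 0.701).

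In vehicle IP, the libraries had the same order by Sgk1 as by the oligodendrocyte markers, and the microglia markers shared their lowest and highest library with both. The summed level of the 10 markers was 10715, 6151, 11010 and 14782 CPM in vehicle IP replicates 2 to 5, lowest and highest in the same libraries as Sgk1. In CNO IP it was 8201, 10564, 10520 and 10983 CPM. There the lowest and the highest again coincided with those of Sgk1, but replicates 3 and 4 had nearly equal marker sums and Sgk1 at 302 and 156 CPM. In input the marker sums ran from 4768 to 6523 CPM with CNO and from 5446 to 6725 CPM with vehicle, and did not follow the order of Sgk1. The summed level of 10 microglia markers was 75.6, 88.4, 84.4 and 86.8 CPM in CNO IP and 94.3, 69.4, 91.3 and 111 CPM in vehicle IP. As for Sgk1, these sums were lower in replicates 2 and 4 than in replicates 3 and 5 of CNO IP, and in vehicle IP lowest in replicate 3 and highest in replicate 5. In input the microglia sums were 1083, 1597, 1583 and 1461 CPM with CNO and 1526, 844, 1438 and 2215 CPM with vehicle, and in both groups the lowest and the highest library were those of Sgk1. The part of oligodendrocyte and microglia RNA in the Sgk1 values was not tested.

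**Figure D3:**
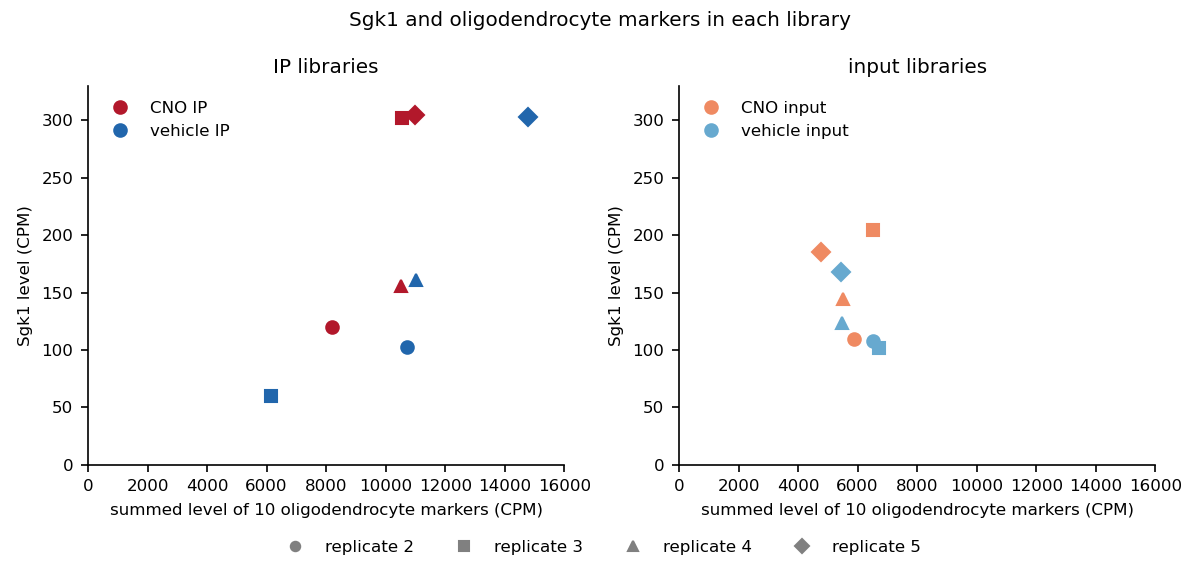
Sgk1 level against the summed level of 10 oligodendrocyte markers, both in CPM, with a point for each IP library (left) and each input library (right); colour gives the injection and shape the replicate number. In vehicle IP both are lowest in replicate 3 (59.6 and 6151 CPM) and highest in replicate 5 (303 and 14782 CPM).

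Tsc22d3 encodes the glucocorticoid-induced leucine zipper protein and lies on the minus strand of chromosome X at 140539528 to 140600659. It measured 233, 352, 182 and 160 CPM in CNO IP and 229, 276, 206 and 169 CPM in vehicle IP. Both groups had replicate 3 highest and replicate 5 lowest, and they overlapped throughout (log2 0.03, SE 0.25, interval -0.54 to 0.60, limma adjusted p = 0.961). The sign of this difference turned with other scalings and without single libraries. In input it measured 108, 133, 81.6 and 79.5 CPM with CNO and 84.6, 103, 86.5 and 69.9 CPM with vehicle, which overlapped too (log2 0.21, interval -0.22 to 0.63, adjusted p = 0.797).

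Klf9, a Krüppel-like transcription factor, lies on chromosome 19 at 23141226 to 23168134, plus strand, and overlaps the microRNA gene Mir1192. It measured 229, 287, 233 and 288 CPM in CNO IP and 284, 272, 271 and 255 CPM in vehicle IP. The CNO libraries fell into a low and a high pair on either side of the vehicle libraries. In input it measured 274, 368, 353 and 357 CPM with CNO and 316, 315, 291 and 318 CPM with vehicle, where replicate 2 was the low CNO library. Neither log2 difference passed, at -0.07 in IP (interval -0.27 to 0.12, limma adjusted p = 0.674) and 0.12 in input (interval -0.09 to 0.32, adjusted p = 0.745).

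Nr3c1, the gene of the glucocorticoid receptor itself, lies on the minus strand of chromosome 18 at 39410545 to 39519421 of GRCm38. It measured 160, 160, 164 and 165 CPM in CNO IP against 212, 215, 228 and 234 CPM in vehicle IP, the tightest CNO group of the 9 genes. The fall in IP was to 0.729-fold (log2 -0.46, SE 0.04, limma adjusted p = 0.000125), and the groups did not overlap. In input it measured 153, 155, 166 and 165 CPM with CNO and 168, 184, 169 and 188 CPM with vehicle. These groups also stood apart, yet by little, and the log2 difference of -0.15 (SE 0.06) did not pass (adjusted p = 0.408). The CNO effect was lower in IP than in input by 0.31 on the log2 scale (interval -0.46 to -0.16, adjusted p = 0.0162). Over the 9, this difference was called higher for 1, Map3k6, and lower for 1, Nr3c1, where 4.18% of all genes were called higher and 0.571% lower.

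The order of the 9 genes by mean CPM per kilobase was the same in CNO IP and vehicle IP. By CPM alone it was not. Mt2 at 279 CPM stood above Klf9 at 259 CPM in CNO IP, and at 107 CPM below Klf9 at 271 CPM in vehicle IP. Per kilobase of the longest principal transcript, Mt1 led in CNO IP with 1127 ± 147 CPM per kb, followed by Mt3 with 584 ± 11.0 and Mt2 with 545 ± 86.9 (SD, n = 4), and Mt3 and Mt2 did not differ beyond their spread. In vehicle IP, Mt1 at 689 ± 51.8 and Mt3 at 682 ± 66.4 CPM per kb could not be ordered, and Mt2 stood well below at 210 ± 23.0. Tsc22d3, Sgk1 and Klf9 came next in both, at 117 ± 43.5, 89.8 ± 39.4 and 57.7 ± 7.29 CPM per kb in CNO IP and 112 ± 22.8, 63.8 ± 43.2 and 60.3 ± 2.68 in vehicle IP. Sgk1 overlapped both Tsc22d3 and Klf9 in either group, judged by mean ± SD. Nr3c1, Errfi1 and Map3k6 closed the order, at 25.2 ± 0.416, 18.0 ± 5.30 and 7.10 ± 3.15 CPM per kb in CNO IP and 34.6 ± 1.63, 10.3 ± 2.20 and 1.11 ± 0.191 in vehicle IP.

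The order in input differed from that in IP for Klf9, for Sgk1 and Tsc22d3 and, in vehicle mice, for the metallothioneins. Sgk1 stood above Tsc22d3 within their spread, at 65.5 ± 17.3 and 50.9 ± 12.8 CPM per kb in CNO input. In vehicle input they stood at 51.0 ± 12.2 and 43.6 ± 6.87. Mt1 and Mt3 led in CNO input with 256 ± 35.3 and 244 ± 14.2 CPM per kb, within their spread. In vehicle input Mt3 led with 243 ± 25.7 over Mt1 with 182 ± 11.2. Mt2 followed in CNO input at 109 ± 15.1 CPM per kb, and in vehicle input at 44.7 ± 6.02 it stood below Klf9, at 69.1 ± 2.89, and within the spread of Sgk1 and Tsc22d3. Map3k6 was the least abundant of the 9 in every group.

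The next comparison sets astrocyte ribosome RNA against whole tissue. In vehicle mice 6 of the 9 genes were higher in IP than in input and 1 was lower, where 37.6% of all genes were called higher and 37.3% lower. In CNO mice the counts were again 6 and 1, where 40.0% of all genes were called higher and 35.1% lower. These comparisons share no libraries with each other, but each shares libraries with the CNO comparisons above. Every mouse gave both RNA types, so the ratio could be read mouse by mouse. The main fits held no mouse term, so their p-values leave this pairing out. That holds for IP against input and for the difference of the CNO effects.

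Of the 9, the metallothioneins had the highest ratios in vehicle mice. The log2 ratio of IP over input was 2.29, 2.39, 2.26 and 2.36 for Mt2 in CNO mice and 2.17, 2.23, 2.25 and 2.28 in vehicle mice. For Mt1 it was 2.19, 2.17, 1.99 and 2.21 in CNO mice and 1.98, 1.91, 1.90 and 1.90 in vehicle mice. Mt3 had 1.23, 1.20, 1.32 and 1.31 in CNO mice and 1.58, 1.37, 1.39 and 1.61 in vehicle mice. All mice were well above 0 for the 3 genes. Every Mt3 ratio was lower in CNO mice than in vehicle mice. This difference of -0.23 did not pass the interaction test, fitted without a mouse term (limma adjusted p = 0.353). Every Mt1 ratio was higher in CNO mice than in vehicle mice, at the closest 1.988 against 1.982. The Mt1 difference of 0.22 did not pass that test either (limma adjusted p = 0.564). Tsc22d3 averaged 1.17 in CNO mice and 1.35 in vehicle mice.

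Map3k6 and Nr3c1 changed their position between IP and input with CNO. The log2 ratio of Map3k6 was 2.32, 2.51, 1.93 and 1.63 in CNO mice and 0.25, 0.65, 1.15 and 0.76 in vehicle mice, with no overlap. Nr3c1 had ratios of 0.06, 0.05, -0.02 and -0.0018 in CNO mice and 0.34, 0.23, 0.44 and 0.32 in vehicle mice, so that its level in IP was close to that in input with CNO. The mean Nr3c1 ratio of 0.33 in vehicle mice (limma adjusted p = 0.000473) lost its call with unnormalized library totals (0.06, adjusted p = 0.285). The ratio of 0.02 in CNO mice turned to -0.29 with unnormalized totals and -0.20 with upper quartile scaling. Those scalings also moved the median of all genes, to -0.27 and -0.18 in CNO mice and to -0.26 and -0.16 in vehicle mice, against 0.04 in CNO mice as deposited and closer to 0 in vehicle mice.

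Klf9, Errfi1 and Sgk1 had smaller mean ratios than the metallothioneins. Klf9 was the one gene of the 9 lower in IP in both injections, at -0.38 in CNO mice (limma adjusted p = 0.0109) and -0.20 in vehicle mice (adjusted p = 0.00639, but 0.0676 with 1 fit over all libraries). Errfi1 averaged 0.53 in CNO mice (adjusted p = 0.0404) and -0.05 in vehicle mice (adjusted p = 0.752), and the CNO value lost its call with both other scalings and when any of 5 of the 8 libraries was left out. The difference between these Errfi1 ratios, 0.58 (interval 0.02 to 1.14), did not pass over all genes (adjusted p = 0.312). Sgk1 ratios were 0.13, 0.56, 0.11 and 0.72 in CNO mice and -0.07, -0.77, 0.38 and 0.85 in vehicle mice. With the mouse as a block the Sgk1 ratio in CNO mice, 0.38, passed the test (limma adjusted p = 0.0115), and without it did not (adjusted p = 0.339).

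**Figure D4:**
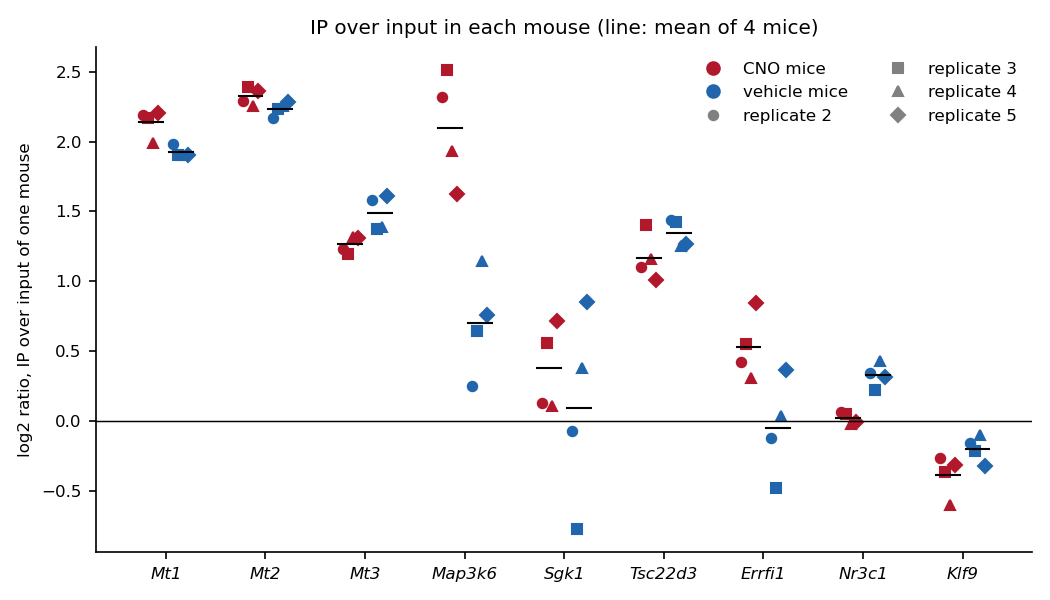
Log2 ratio of IP over input in each mouse for the 9 genes, with points for mice (shape gives the replicate number) and a line for the mean of 4 mice. CNO and vehicle mice separate for Map3k6 (means 2.10 and 0.70), Nr3c1 (0.02 and 0.33), Mt3 (1.26 and 1.49) and, barely, Mt1 (2.14 and 1.92). Both sets of Mt2 points lie between 2.17 and 2.39.

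Likeness to each of the 9 was measured over the 16 libraries as the root mean square difference of log2 CPM, each gene centred on its own mean, so a smaller value is a closer match. It describes shared levels across these libraries, including the step between IP and input. The measure is not scaled to a gene's own variation, which enters the value. It therefore orders the matches of a single gene and does not rank the 9 genes. The closest gene to Nr3c1 was Bmyc, at 0.0860, with Hs1bp3 and Amdhd2 next, and the closest to Mt3 was Ptprf, at 0.0934, before Lgr4 and Cst3. Klf9 was matched by Eefsec at 0.106, Akirin2 and Zfp93. Mt1 was matched by Tmem100 at 0.122, Mtmr11 and Lonrf3.

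The other members had the following closest matches. The closest to Mt2 was Mfsd2a, a lipid transporter gene, at 0.193, then Ppp1r3c and Dio2, and the closest to Errfi1 were Zfp281 at 0.171, Gpd1 and Tpm3. Tsc22d3 was nearest to Ccdc37 at 0.223, Gpt2 and Abca5, and Map3k6 to March3 at 0.276, Ifrd1 and Ptbp1. For Sgk1, which varied widely itself, the closest was Nfkbia at 0.355, then Cela1 and Errfi1. Mfsd2a, Gpd1 and Nfkbia also belong to the list of glucocorticoid-responsive genes described next, an overlap whose size was not tested.

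Other genes known to respond to glucocorticoids were looked at as a list of 32, none of them among the 9. In IP, 13 of the 32 rose with CNO and 2 fell, beside 10.2% of all genes called higher and 7.07% called lower, and 17 did not pass. The list had a median log2 change of 0.26 against -0.01 over all genes. In input, 4 rose, with a median of 0.15 against -0.02, and 0 fell by limma, by limma-voom or at an unadjusted p under 0.05, beside 0.815% of all genes called higher and 0.183% called lower. The list was compiled with earlier results of these data known and it includes genes that also respond to cytokines or cAMP. The count in IP ran from 10 to 12 higher and from 2 to 5 lower when single libraries were left out, and 5 were lower with unnormalized totals or upper quartile scaling. The count in input fell to 2 without any 1 of 7 of the 8 libraries, the Cebpd and Rasd1 calls being lost.

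The widest rises belonged to transcription factors and signalling genes. Cebpd, an acute-phase transcription factor, averaged 235 ± 44.6 CPM in CNO IP and 34.8 ± 21.4 CPM in vehicle IP (SD, n = 4; log2 2.95, limma adjusted p = 0.00166). Its partner Cebpb averaged 46.0 ± 12.8 CPM in CNO IP and 8.79 ± 0.811 CPM in vehicle IP (log2 2.35, adjusted p = 3.98e-05). Il6ra, a subunit of the interleukin-6 receptor, averaged 10.6 ± 1.72 CPM in CNO IP and 2.05 ± 0.283 CPM in vehicle IP (log2 2.37, adjusted p = 5.03e-06). The co-repressor Tle3 rose by 1.73 and the small G protein gene Rasd1, first known as dexamethasone-induced, by 1.48 on the log2 scale.

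Fkbp5 and Per1 also rose in IP. Fkbp5, a co-chaperone that dampens the receptor, averaged 65.8 ± 24.0 CPM in CNO IP and 31.8 ± 4.59 CPM in vehicle IP (SD, n = 4; log2 1.00, limma adjusted p = 0.0145). Its input values of 62.0 ± 8.62 CPM with CNO and 49.0 ± 4.06 CPM with vehicle did not differ past the threshold (log2 0.33, adjusted p = 0.216). The clock gene Per1 averaged 94.1 ± 5.40 CPM in CNO IP and 50.3 ± 3.88 CPM in vehicle IP (log2 0.90, adjusted p = 1.82e-05), with 50.8 ± 5.74 CPM in CNO input and 51.2 ± 6.97 CPM in vehicle input. The CNO effect on Per1 was larger in IP than in input by 0.91 (adjusted p = 0.000416). Sesn1, a stress-response gene, fell by 0.71 in IP and stood at 0.03 in input, and Tsc22d4, a relative of Tsc22d3, fell by 0.37 in IP.

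**Figure D5:**
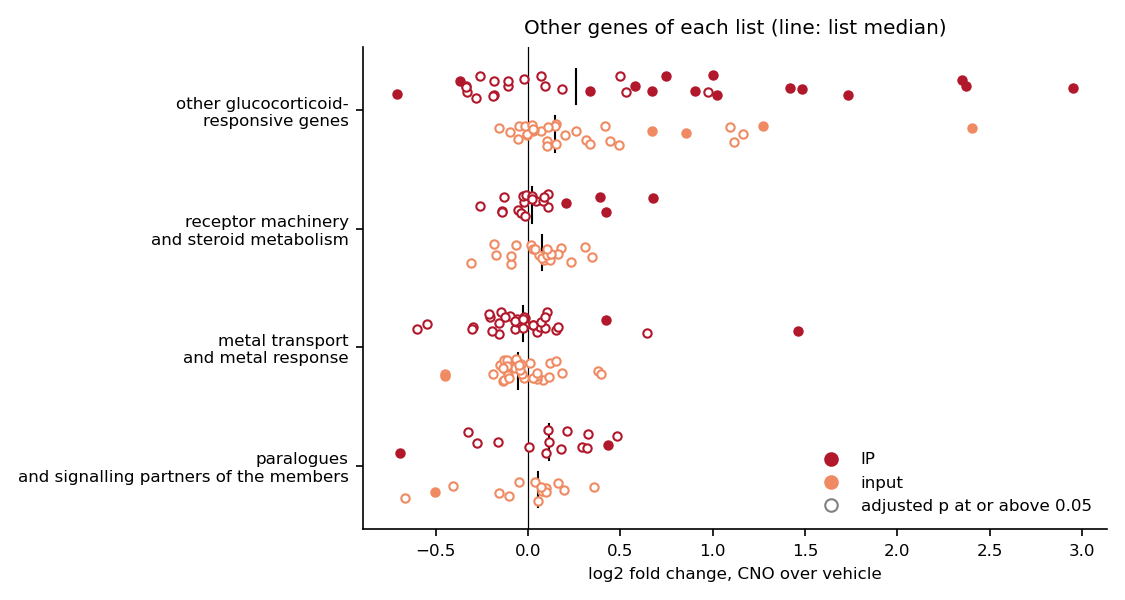
Log2 fold change of CNO over vehicle for the other genes of 4 lists, in IP and in input, with a point for each gene, filled where the adjusted p was under 0.05, and a line at the list median. The list of other glucocorticoid-responsive genes spreads furthest to the right in IP, with Cebpd at 2.95, and has 13 filled points above 0 and 2 below.

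Of 21 measured genes that hold, modify or supply the receptor, 4 rose in IP and 0 fell, by limma, by limma-voom and at an unadjusted p under 0.05. Over all genes, 10.2% were called higher in IP and 7.07% lower. In input 0 passed limma or limma-voom, beside 0.815% of all genes called higher by limma and 0.183% called lower. At an unadjusted p under 0.05, 4 were higher and 1 lower in input. No share over all genes was taken at the unadjusted p. Among them, the chaperone genes Hspa4 and Hspa8 rose by 0.42 and 0.20 in IP and the receptor-interacting gene Nrip1 by 0.39. The Hspa8 call (adjusted p = 0.0435) was lost when any of 7 of the 8 libraries was left out. The mineralocorticoid receptor gene Nr3c2 averaged 55.4 ± 5.02 CPM in CNO IP and 60.8 ± 1.24 CPM in vehicle IP (SD, n = 4; log2 -0.14, adjusted p = 0.187). Hsd11b1, whose enzyme regenerates active glucocorticoid inside cells, averaged 19.6 ± 2.88 CPM in CNO IP and 24.5 ± 7.90 CPM in vehicle IP (log2 -0.26, adjusted p = 0.577).

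Of 34 metal-handling genes other than metallothioneins, 2 rose and 0 fell in IP by limma and limma-voom, with a median log2 change of -0.03. Over all genes, 10.2% were called higher in IP and 7.07% lower by limma. At an unadjusted p under 0.05, 3 of the 34 were higher and 5 lower, and no share over all genes was taken there. In input Slc40a1, the iron exporter gene, fell by 0.45, a call lost when any of 7 of the 8 libraries was left out. The zinc and iron importer gene Slc39a14 averaged 184 ± 17.8 CPM in CNO IP and 66.5 ± 6.26 CPM in vehicle IP (SD, n = 4; log2 1.46, limma adjusted p = 4.61e-06). The copper importer gene Slc31a1 rose by 0.42. Mtf1, the factor that binds metal response elements, averaged 47.6 ± 2.12 CPM in CNO IP and 45.5 ± 1.70 CPM in vehicle IP (log2 0.06, adjusted p = 0.435). Slc30a1, a zinc exporter and an established Mtf1 target, averaged 60.4 ± 3.28 CPM in CNO IP and 61.3 ± 3.21 CPM in vehicle IP (log2 -0.02, SE 0.06, adjusted p = 0.857). With unnormalized totals 2 of the 34 were called lower in IP, and with upper quartile scaling 4.

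Of 15 measured paralogues and signalling partners of the 9 genes, 1 rose and 1 fell in IP, close to the shares over all genes of 10.2% called higher and 7.07% called lower. Egfr, whose receptor Errfi1 restrains, averaged 187 ± 17.7 CPM in CNO IP and 139 ± 2.39 CPM in vehicle IP (SD, n = 4; log2 0.43, limma adjusted p = 0.00195). Its partner Erbb2 averaged 7.97 ± 0.950 CPM in CNO IP and 12.9 ± 1.29 CPM in vehicle IP (log2 -0.70, adjusted p = 0.00218). In input Erbb3, another receptor of that family, fell by 0.51, a call lost without any of 4 of the 8 libraries.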

How the data were processed

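RNA was measured in 16 libraries, 4 per group. The submitters' processing notes name bcl2fastq 2.17, STAR, HTSeq, limma and the build mm10. The annotation and the strand setting were not given in the sources used here. Paired-end libraries came from a Nugen Ovation V2 kit after mRNA enrichment, per the labels' protocols. The deposited values are the authors' log2 CPM. They resolved into whole reads, within 0.01 read, for 100% of values, with a prior count of 0.25 and normalized library sizes 0.880 to 1.14 times the read totals, and a gene without reads stands at -7.54. A duplicate line was dropped, which left 17097 genes, and 2 lines that share a date-like symbol were not used by name. Genes with fewer than 29 reads over all libraries were absent from the tables.

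Each comparison was fitted over all genes to the deposited log2 values (limma 3.58.1, R 4.3.3, trend and robust settings, two-sided), with Benjamini-Hochberg adjustment and a threshold of 0.05. Genes needed 15 reads in all and, in 4 libraries, a CPM worth 10 reads at median depth. Count models were not used as the main test because the deposited unit is log2. Alternatives were other scalings, a prior count of 2, no filter, limma-voom on recovered reads, blocks, 1 fit over all libraries and leaving out each library. Mt1, Mt2 and Mt3 values per kilobase, like those of the other genes, use the longest principal transcript of GENCODE M21. Promoter windows are RefSeq's (GRCm38.p6). IP and input libraries with the same mouse code deviated together, with correlations of 0.21 to 0.57 over genes. Libraries with different codes were not compared, so the pairing rests on the codes in the titles. The main fits did not use this pairing, and the mouse entered only as a block among the alternatives.

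The 9 genes and all lists were chosen with earlier results of these data known. Named from each list were up to 5 genes that rose and up to 3 that fell most in IP, then Fkbp5, Per1, Nr3c2, Hsd11b1, Mtf1 and Slc30a1, and for each of the 9 the 3 genes most like it. Slc40a1 and Erbb3 were named after their values were seen. A gene that this rule names is not reported here. Fits were tested on simulated data.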

Additional observations from a re-analysis of the deposited data

Results flagged for a closer look

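In 3 of 36 groups of 4 libraries, 1 for each of the 9 genes and 4 groups, a single library stood far from the others. The measure is the gap to the nearest library over the group's whole range on the log2 scale, tested with Dixon's criterion, and chance alone gives about 1 in 20 such groups. Map3k6 in vehicle input had a value of 0.886, replicate 2 being the high library at 3.47 CPM. Klf9 had a value of 0.858 in CNO input, where replicate 2 was low at 274 CPM, and of 0.913 in vehicle input, where replicate 4 was low at 291 CPM.

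By limma, the CNO effect differed between IP and input for 2 of the 9 genes, 1 called higher and 1 lower. Over all genes, 4.18% were called higher and 0.571% lower. For Map3k6 the effect in IP exceeded that in input by 1.39 on the log2 scale (limma adjusted p = 0.0176), a call that limma-voom did not make. Its ratio of IP over input was higher in 4 of 4 CNO mice than in every vehicle mouse. For Nr3c1 the difference was -0.31 (limma adjusted p = 0.0162), and the ratio was lower in 4 of 4 CNO mice than in every vehicle mouse. These ratios are the values from which the differences were taken, so they add no support of their own. The ratios of Mt1 and Mt3 also stood apart between the injections, and their differences did not pass the test. A change in input also carries the astrocyte share of that tissue RNA, so the effects in IP and input are not independent measures.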

How the results depend on the processing

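Of 738 values of the 9 genes under alternatives, 693 kept their direction and side of the threshold, 25 lost the call, 5 gained it and 15 changed sign, none of them called both times. The causes of the changes below were not tested.

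CNO against vehicle in IP gave 2 of the 9 genes called lower, not 1, with unnormalized totals or upper quartile scaling, and 1 to 2 without single libraries. Genes called lower over the whole table numbered 1102 in the main fit, 1623 with unnormalized totals and 1907 with upper quartile scaling. They numbered 717 with the replicate block and 596 to 1213 without single libraries. The Tsc22d3 difference was -0.011 with unnormalized totals, -0.026 with upper quartile scaling and -0.19 to 0.19 without single libraries. In input, genes called lower numbered 7 with the replicate block, 105 with 1 fit over all libraries and 4 to 27 without single libraries, against 29, and those higher 85 to 155, against 129. With the replicate block 1 of the 9 was called higher in input, not 3, Mt1 (adjusted p = 0.0881) and Map3k6 (0.0575) losing the call. CNO and vehicle libraries with the same replicate number had correlations of -0.19 to 0.22 in IP and -0.37 to 0.00067 in input. Libraries with different numbers were not compared, so whether the numbers pair CNO with vehicle libraries was not tested. Mt3 in input ran from -0.051 to 0.068 without single libraries.

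For IP against input in CNO mice, 2 of the 9 were called lower with unnormalized totals or upper quartile scaling, not 1, Nr3c1 turning to -0.29 and -0.20. Genes called lower over the whole table then numbered 8026 and 7289, against 5546. In vehicle mice, 2 were lower with unnormalized totals and 0 with 1 fit over all libraries. Genes called lower over the whole table then numbered 8076 and 5988, against 5924. Sgk1 in vehicle mice was -0.17 with unnormalized totals, -0.067 with upper quartile scaling and -0.30 to 0.48 without single libraries, and Errfi1 -0.18 to 0.054. For the difference of the CNO effects, genes called lower numbered 165 with unnormalized totals, 180 with upper quartile scaling, 222 with the mouse as replicate block and 45 to 109 without single libraries, against 93. Limma-voom called 0 of the 9 higher there, not 1. Without single libraries Mt2 ran from -0.014 to 0.17 and Sgk1 from -0.10 to 0.68.

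The lowest count among the 9 genes was 115 reads, for Map3k6 in vehicle input, and the limma-voom fit, which weights by counts, did not call its difference of effects (adjusted p = 0.197). With 4 libraries a group, changes of the size seen for Errfi1 in IP or Mt1 in input sat at the threshold.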
